A study of Rattus norvegicus with 6 samples.

Results

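The rat miRNAs rno-miR-21-5p and rno-miR-29a-3p, called miR-21-5p and miR-29a-3p here, are small RNAs linked to fibrosis and to the make-up of the extracellular matrix. Under the main scaling both had higher levels in compressed discs than in sham discs, by 2.34-fold for rno-miR-21-5p and 2.26-fold for rno-miR-29a-3p. Under other scalings and on the authors' own values the folds ran from 1.75 to 2.74 for miR-21-5p and from 1.69 to 2.66 for miR-29a-3p. Both miRNAs were taken by their names from the deposited table of mature sequences, together with every entry whose name begins with miR-21, miR-29a, miR-29b or miR-29c. That gave 3 of 442 distinct sequences, namely miR-21-5p, miR-29a-3p and miR-29c-3p, the last entered in 2 identical rows for 2 precursors and counted once. The tissue was the nucleus pulposus, the soft centre of a spinal disc, from rats under compression for 4 weeks to induce disc degeneration (IDD, 3 libraries) and from rats that carried K-wires for 4 weeks (Sham, 3 libraries). The study asked which miRNAs respond to mechanical load in disc degeneration. The labels used here give no strain, age or disc level, and do not say whether a library came from 1 animal. The p-values below therefore refer to the variation among these 6 libraries, which may be technical.

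A mature miRNA is cut from a hairpin precursor and guides the silencing of mRNAs that pair with its seed, bases 2 to 8. miR-21 is induced in many injured tissues and by TGF-beta signalling. Its known targets include Spry1, Pdcd4 and Smad7, and in heart, lung and kidney it is counted among the miRNAs that promote fibrosis. The miR-29 family binds the mRNAs of fibrillar collagens, elastin and fibrillin and is counted among the miRNAs that restrain matrix deposition. In cultured fibroblasts TGF-beta raises miR-21 and lowers miR-29. The healthy nucleus pulposus is rich in aggrecan and type II collagen, and it becomes more fibrous as the disc degenerates.

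The mature sequences are shown because the seed decides the targets and because the miR-29 members are nearly alike. Capitals mark the seed.
miR-21-5p: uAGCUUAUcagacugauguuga
miR-29a-3p: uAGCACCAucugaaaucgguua
miR-29c-3p: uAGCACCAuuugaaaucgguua
miR-29b-3p: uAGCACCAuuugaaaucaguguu
The first 3 were read from the deposited table and are identical to the RefSeq entries of the same name, and miR-29b-3p, which is shown for comparison and was not analysed here, is the RefSeq entry of the GRCr8 build. miR-21-5p was the only 1 of 693 rat mature names in that RefSeq table with its seed, and the only 1 of the 442 deposited sequences. The miR-29 seed was shared by 3 RefSeq names, of which miR-29a-3p and miR-29c-3p had counts to analyse. Counting positions from 1 at the 5′ end, miR-29c-3p departs from miR-29a-3p by the single change C10U, outside the seed. miR-29b-3p differs from miR-29a-3p by the same C10U and by G18A, U21G and A22U, and is 1 base longer. Apart from miR-29a-3p and miR-29c-3p themselves, no analysed sequence differed from a member by 1 substitution, contained one or lay inside one.

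The hairpins are shown to place the counted arm, with both mature arms in capitals, 5′ to 3′ on the minus strand.
Mir21: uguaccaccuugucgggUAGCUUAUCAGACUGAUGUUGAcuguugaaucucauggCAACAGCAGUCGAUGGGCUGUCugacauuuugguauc
Mir29a: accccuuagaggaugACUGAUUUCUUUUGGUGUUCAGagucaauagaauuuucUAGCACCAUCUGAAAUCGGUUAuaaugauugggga
In RefSeq's GRCr8 build, Mir21 lies at chr10:71902600-71902691, next to the protein-coding gene Vmp1, and the counted arm is the 5p arm. Mir29a lies at chr4:60617955-60618042, and the counted arm is the 3p arm. The start of the Mir29a 3p arm is 374 bases from that of Mir29b1 on the same strand. Mir29c lies at chr13:109099359-109099446, its 3p arm 530 bases from that of Mir29b2. The miR-29 family thus comes from a pair of gene clusters, and the 2 analysed members from different ones. The opposite arms, miR-21-3p, miR-29a-5p and miR-29c-5p, were not analysed here.

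miR-21-5p was counted 1466, 959 and 1388 times in IDD 1, 2 and 3, against 490, 507 and 455 times in Sham 1, 2 and 3. Library totals were 189802 to 246422 tags in IDD and 169783 to 253807 in Sham. On a scale corrected for library size (CPM) by the trimmed mean of M values (TMM), which limits the weight of a few dominant sequences, the level of miR-21-5p was 5671, 4903 and 5785 CPM in IDD and 2302, 2132 and 2565 CPM in Sham. Every IDD library lay above every Sham library, with IDD 2 the lowest of its group. The means were 5453 ± 479.8 CPM in IDD and 2333 ± 218 CPM in Sham (SD, n = 3 each). The log2 fold change was 1.23 (SE 0.12), or 2.34-fold, with a Benjamini-Hochberg adjusted p of 4.13e-06 in edgeR's quasi-likelihood test over 131 sequences. In whole tissue a shift in the share of a cell type and a change of RNA per cell cannot be told apart.

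miR-29a-3p was counted 332, 266 and 349 times in IDD 1, 2 and 3, against 121, 163 and 98 times in Sham 1, 2 and 3. Its level was 1284, 1359.8 and 1455 CPM in IDD and 568, 685 and 553 CPM in Sham. The groups again did not overlap, with IDD 1 the lowest of the compressed libraries and Sham 2 the highest of the sham libraries. The means were 1366 ± 85.4 CPM in IDD and 602 ± 72.5 CPM in Sham (SD, n = 3 each). The log2 fold change was 1.17 (SE 0.12), or 2.26-fold (edgeR's quasi-likelihood test, adjusted p = 7.47e-06).

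**Figure D1:**
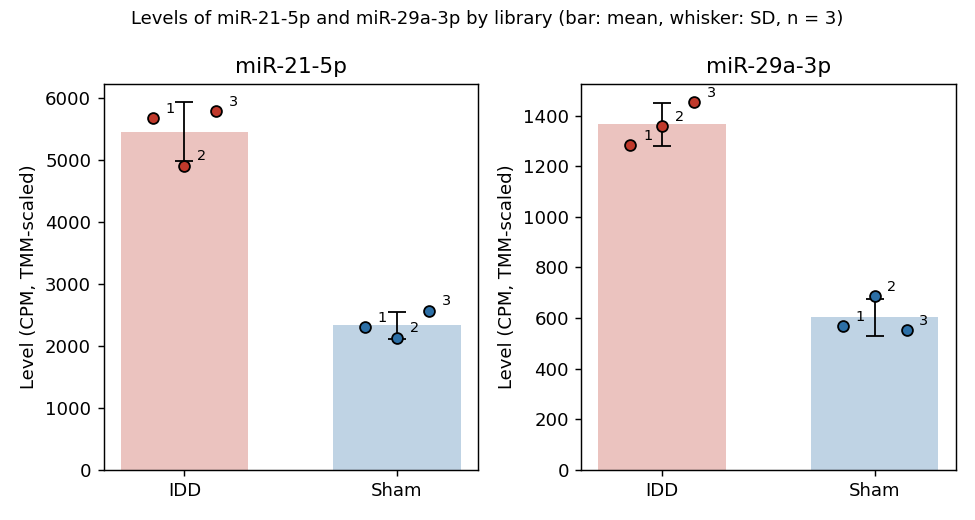
Level of each miRNA in TMM-scaled CPM (vertical axis, from 0) in IDD (red) and Sham (blue) libraries, numbered by replicate, with bars at the mean and whiskers of 1 SD (n = 3). For both miRNAs all 3 IDD points lie above all 3 Sham points, miR-21-5p at 4903 to 5785 CPM in IDD and 2132 to 2565 CPM in Sham and miR-29a-3p at 1284 to 1455 CPM in IDD and 553 to 685 CPM in Sham.

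These calls were made against a background in which much of the library differed. Of the 131 tested sequences 78 passed the threshold, or 59.5%, and 38 (29.0% of those tested) were higher in IDD and 40 (30.5%) lower. Of the 108 with an established miRNA name 62 passed, or 57.4%, with 36 higher (33.3%) and 26 lower (24.1%). For 87 sequences, or 66.4%, the groups did not overlap, and for 47 sequences, or 35.9%, all 3 IDD values exceeded all 3 Sham values. A call or a lack of overlap is therefore common here, whereas a rise of at least 2-fold was called for 10 sequences, or 7.63%, among them both members. By log2 fold change miR-21-5p stood 8th and miR-29a-3p 9th of 131, and 1st and 2nd of the 51 established miRNAs that averaged at least 500 CPM in IDD. Their places among the 108 ran from 2 to 9 and from 3 to 11 over the settings that tested all 108. The 7 established miRNAs with larger rises averaged 55.5 to 202 CPM in IDD, so both members were more abundant than any of them. The cut at 500 CPM in IDD leaves out all 7, so the 1st and 2nd places follow from it. The median log2 fold change of the tested sequences was 0.03, and of the 108 established miRNAs 0.16.

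**Figure D2:**
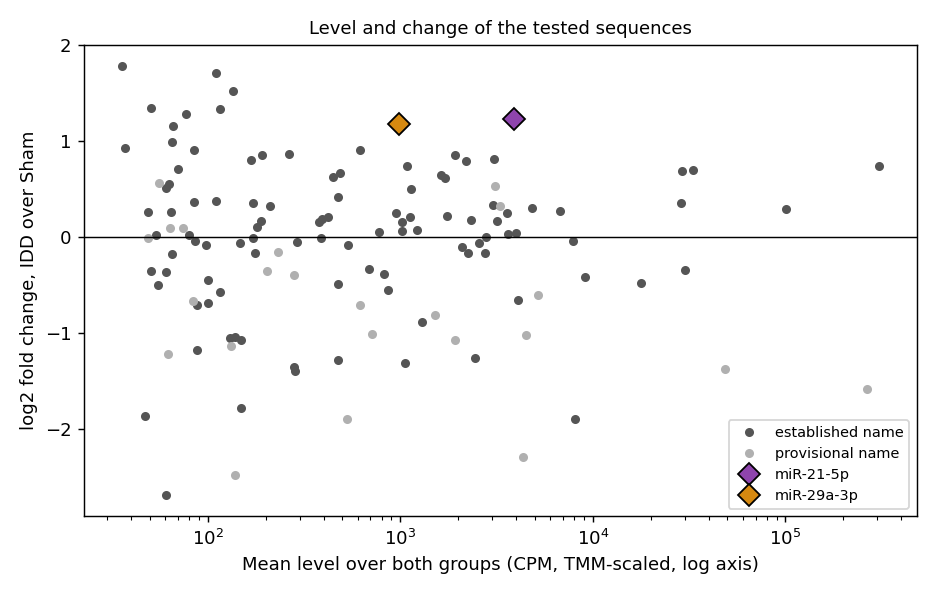
Mean level over both groups (horizontal, CPM on a log axis) against log2 fold change of IDD over Sham (vertical) for 129 tested sequences, dark for established and pale for provisional names. The 2 sequences beyond 5 on the log2 scale, each blank in 1 whole group, are not drawn, and miR-21-5p (1.23) and miR-29a-3p (1.17) lie above the other sequences of similar level.

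In the ranking of established miRNAs by count, miR-21-5p stood 11th or 12th in the IDD libraries and 21st to 26th in the Sham libraries. miR-29a-3p stood 32nd to 35th in IDD and 46th to 49th in Sham. The established miRNAs nearest to miR-21-5p by mean level over all 6 libraries had smaller or negative log2 fold changes. Above it, miR-99b-5p averaged 3168 ± 343 CPM in IDD and 4981 ± 1010.1 CPM in Sham and let-7c-5p 4044 ± 206 CPM in IDD and 3916 ± 417 CPM in Sham (SD, n = 3 each). Below it, let-7a-5p averaged 3666 ± 334 CPM in IDD and 3596 ± 466 CPM in Sham and miR-22-3p 3894 ± 149 CPM in IDD and 3271 ± 157 CPM in Sham. For miR-29a-3p the neighbours were miR-148a-3p and miR-320-3p above it (log2 fold changes 0.15, adjusted p = 0.404, and 0.07, adjusted p = 0.661, edgeR) and miR-378a-3p and miR-450b-5p below it (0.25 and -0.55). Of the 8 neighbours, miR-99b-5p (log2 fold change -0.65, adjusted p = 0.00174) and miR-450b-5p (adjusted p = 0.00219) fell and miR-22-3p (0.25, adjusted p = 0.0461) rose in edgeR's quasi-likelihood test. miR-99b-5p and miR-450b-5p stayed called lower under all 24 alternatives, and the sign of each of the other 6 turned under at least 2.

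As a share of all tags, miR-21-5p made up 0.595%, 0.505% and 0.646% in IDD 1, 2 and 3 and 0.193%, 0.201% and 0.268% in Sham 1, 2 and 3. The exact 95% binomial (Clopper-Pearson) intervals, which cover counting error only, reached down to 0.474% in IDD and up to 0.294% in Sham. The mean share was 0.582% ± 0.0714 in IDD and 0.221% ± 0.0411 in Sham. The errors are SDs (n = 3), and the exact permutation test (two-sided) gave p = 0.1, adjusted 0.15 over 3 such tests. miR-29a-3p made up 0.135%, 0.140% and 0.163% of tags in IDD and 0.0477%, 0.0648% and 0.0577% in Sham, with intervals down to 0.121% in IDD and up to 0.0755% in Sham. Its mean share was 0.146% ± 0.0147 in IDD and 0.0567% ± 0.00858 in Sham, with the same exact p = 0.1, adjusted 0.15. With 3 libraries against 3 this test cannot go below 0.1.

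The size of both rises depended on what the counts were scaled by. With TMM, the most abundant provisionally named tag averaged 132375 CPM in IDD and 397347 CPM in Sham. The next averaged 27127 CPM in IDD and 70385 CPM in Sham. Tags that do not end in CCA numbered 151749 to 209570 in IDD and 100409 to 142016 in Sham. The tags of established miRNAs numbered 147728 to 204707 in IDD and 95412 to 135609 in Sham, and this depth moves with the group. As a share of those tags, miR-21-5p held 0.720% ± 0.0727 in IDD and 0.414% ± 0.0554 in Sham, a ratio of 1.74. miR-29a-3p held 0.181% ± 0.0188 in IDD and 0.106% ± 0.0123 in Sham, a ratio of 1.70 (SD, n = 3, exact permutation p = 0.1 for each miRNA). When miR-1b, a muscle miRNA and the most abundant of the established names by mean level, was also left out of the denominator, the ratio of IDD to Sham was 2.08 for miR-21-5p and 2.03 for miR-29a-3p. With tags that do not end in CCA the ratios were 1.78 and 1.74, and the groups did not overlap under any of these 4 denominators.

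Fitted with edgeR under the same choices, the log2 fold change of miR-21-5p was 1.41 by the total of all tags, 1.23 by TMM, 1.05 by the geometric mean of 5 miRNAs often used as references, 0.84 by the tags that do not end in CCA and 0.80 by the tags of established miRNAs. That of miR-29a-3p was 1.36, 1.17, 1.00, 0.79 and 0.76 under the same 5 choices. The lowest of these estimates is 1.75-fold for miR-21-5p and 1.69-fold for miR-29a-3p, and each of the 10 had an adjusted p of at most 0.000248 in edgeR's quasi-likelihood test. The 5 reference miRNAs were not all stable here with TMM. miR-103-3p (log2 fold change 0.79) and miR-191a-5p (0.63) were called higher in IDD and miR-423-5p (-0.70) lower. miR-25-3p (-0.06) and miR-93-5p (0.26) were not called. The scaling moved the median log2 fold change by 0.19 with all tags, -0.18 with the reference miRNAs, -0.39 with the tags that do not end in CCA and -0.42 with the tags of established miRNAs. Relative to that median miR-21-5p stayed within 1.19 to 1.20 and miR-29a-3p within 1.15 on the log2 scale under those 5 choices. This follows from the choices themselves, which rescale whole libraries and so move all sequences by nearly the same amount. With TMM on established miRNAs only, where the set of sequences differs, the distances were 1.09 for miR-21-5p and 1.04 for miR-29a-3p. The split of all calls does turn with the scaling, being 38 higher and 40 lower with TMM, 52 and 29 by all tags, 18 and 61 by tags that do not end in CCA and 18 and 64 by the tags of established miRNAs.

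**Figure D3:**
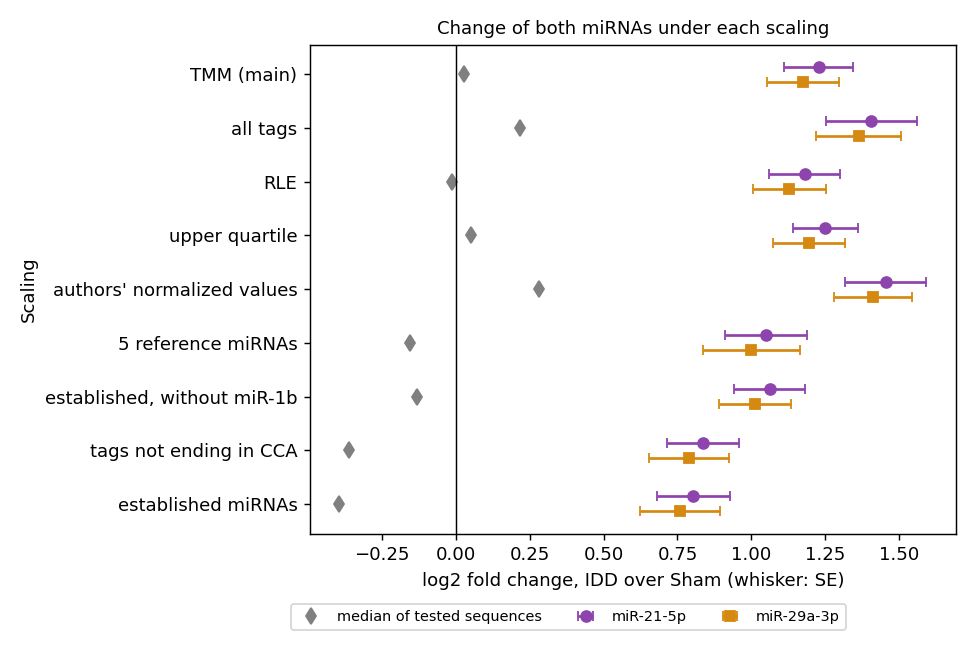
Log2 fold change of IDD over Sham (horizontal) with 1 SE under 9 scalings (vertical) for miR-21-5p (purple circles) and miR-29a-3p (orange squares), with the median of the tested sequences as grey diamonds. Both miRNAs stay above 0.7 under each scaling and move together with the median.

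The authors' own normalized tag counts were also higher in IDD for both. miR-21-5p had 844, 698 and 817 normalized tags in the authors' deposited table in IDD 1, 2 and 3, against 260.0, 256 and 349 in Sham 1, 2 and 3. miR-29a-3p had 191, 194 and 205 in IDD and 64, 82 and 75 in Sham. The log2 fold changes on that scale, after adding 1, were 1.45 for miR-21-5p and 1.41 for miR-29a-3p (limma, Benjamini-Hochberg adjusted p = 5.57e-10 and 5.43e-10). On this scale 60 of the 131 sequences were called higher and 30 lower.

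The ratio of miR-21-5p to miR-29a-3p within a library does not depend on scaling, and it did not separate the groups. It was 4.42, 3.61 and 3.98 in IDD 1, 2 and 3 and 4.05, 3.11 and 4.64 in Sham 1, 2 and 3. The lowest and the highest of the 6 ratios are both Sham libraries. The mean log2 ratio was 1.99 ± 0.15 in IDD and 1.96 ± 0.29 in Sham (SD, n = 3), a difference of 0.04 (exact permutation test, two-sided, p = 1, adjusted 1). The sign of the difference turned when 1 library was left out, to -0.04 without IDD 1 and -0.12 without Sham 2.

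Replicates of miR-21-5p spread more than counting alone gives, with a chi-square per degree of freedom of 8.81 in IDD and 4.14 in Sham, where 1 is counting noise. For miR-29a-3p the values were 1.33 in IDD and 1.89 in Sham. The summed counts were 3813 in IDD and 1452 in Sham for miR-21-5p, a scaled ratio of 2.38 with an exact 95% counting interval of 2.24 to 2.53. For miR-29a-3p the summed counts were 947 in IDD and 382 in Sham, a scaled ratio of 2.24 with an interval of 1.99 to 2.53. Libraries of the same number, set side by side, gave log2 differences of IDD over Sham of 1.30, 1.20 and 1.17 for miR-21-5p and 1.18, 0.99 and 1.40 for miR-29a-3p. All 6 of these differences are positive, as any pairing must give where the groups do not overlap, so the signs add nothing to that.

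miR-29c-3p, which shares the miR-29 seed, was near the limit of what the table lists. It was blank in IDD 1 and 2 and counted 2 times in IDD 3, against 2, 3 and 2 times in Sham 1, 2 and 3. The lowest count listed anywhere is 2, so a blank may stand for 0 or 1, and no fold was computed. Among tags with the miR-29 seed, miR-29c-3p made up 2 of 351 in IDD 3, or 0.570% (exact 95% interval 0.0691% to 2.04%). In Sham 1, 2 and 3 it made up 1.63% of 123, 1.81% of 166 and 2.00% of 100 tags, with intervals between 0.198% and 7.04%. In IDD 1 and 2, where it was blank, the upper interval bounds were 1.10% of 332 and 1.38% of 266 tags, and reading a blank as 1 count gives 0.300% and 0.375%. All 3 IDD shares thus lay below all 3 Sham shares, on 2 listed counts in IDD and 7 in Sham, and each interval in IDD overlaps each in Sham. The difference in share was not tested. Nearly all tags with the miR-29 seed were thus miR-29a-3p in every library. The pair differs by 1 base, so how the authors' counting divided tags between them is uncertain.

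**Figure D4:**
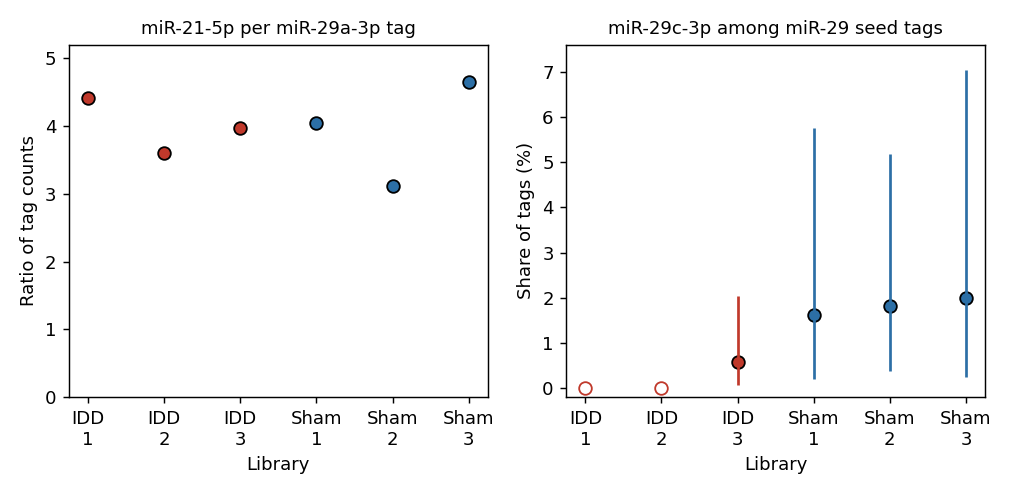
Left, counts of miR-21-5p per count of miR-29a-3p in each library (vertical axis from 0), IDD in red and Sham in blue, from 3.11 to 4.64 with the groups intermixed. Right, the share of miR-29c-3p among tags with the miR-29 seed in percent, with exact 95% intervals, where open circles mark the 2 IDD libraries in which it is blank.

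Among other miRNAs tied to fibrosis, some rose, some fell and most did not pass the test. Of 12 miRNAs reported to promote fibrosis, 8 had counts and 5 could be tested. Of these 5, 2 rose and 0 fell, namely miR-21-5p and miR-22-3p (log2 fold change 0.25, SE 0.10, edgeR adjusted p = 0.0461), the latter known from heart. The call of miR-22-3p was kept under 10 of 24 alternatives. It was lost with the sign kept under 12, and under 2 the sign turned and the lower level was not called. The log2 fold changes of the others were those of miR-192-5p (0.26, SE 0.20, adjusted p = 0.495), known from the kidney, miR-27a-3p (0.16, SE 0.17, adjusted p = 0.477) and miR-199a-5p (-0.08, SE 0.15, adjusted p = 0.684), a miRNA of mesenchymal cells. The median log2 fold change of the 5 was 0.25, and without miR-21-5p it was 0.21, beside 0.16 over all tested established miRNAs. miR-214-3p, made from the same transcript as miR-199a-5p, was too sparse to test, with 6, 9 and 5 counts in IDD and blanks in all 3 Sham libraries. miR-34a-5p, with 2 to 4 counts in every library, and miR-145-5p, listed in 1 Sham library alone, were also too sparse.

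Of 17 miRNAs reported to restrain fibrosis, 12 had counts and 10 could be tested. Of these, 3 rose, 2 fell and the other 5 did not pass. Beside miR-29a-3p, miR-26a-5p rose (log2 fold change 0.70, SE 0.11, edgeR adjusted p = 0.0001) and averaged 40912 ± 4605 CPM in IDD and 25158 ± 824 CPM in Sham (SD, n = 3 each). miR-24-3p, known from heart to lower TGF-beta activation, rose by less (0.50, SE 0.12, adjusted p = 0.00208), and fell short of the threshold under 3 alternatives. miR-101a-3p was lower in IDD (log2 fold change -0.48, SE 0.15, edgeR adjusted p = 0.0134), though 5 alternatives put it short of the threshold. miR-200a-3p, an epithelial miRNA, was blank in every IDD library and had 27, 33 and 64 counts in Sham 1, 2 and 3. Against a floor of 3 counts per library it was at least 15.9-fold lower in IDD (edgeR adjusted p = 0.0214, lost under 10 of 23 alternatives). Without Sham 3, the library with 64 counts, the bound was 10.1-fold. miR-133a-3p, a muscle miRNA that restrains collagen in heart (0.55, adjusted p = 0.124), miR-140-5p of cartilage (0.27, adjusted p = 0.0681), miR-30c-5p (0.22, adjusted p = 0.0863), let-7d-5p (0.06, adjusted p = 0.741) and miR-122-5p of liver (-0.04, adjusted p = 0.741) did not pass. With the replicate number as a block miR-140-5p did pass (0.27, edgeR adjusted p = 0.0179). It passed under 8 of 24 alternatives in all, the block among them, and its sign turned under 2. By the tags of established miRNAs miR-122-5p (-0.47, edgeR adjusted p = 0.00101) and miR-199a-5p (-0.50, adjusted p = 0.0104) were called lower. The median of the 10 was 0.25, and the same with miR-200a-3p at its bound, and without miR-29a-3p it was 0.22. miR-146a-5p, with 3, 2 and 5 counts in IDD and 3 counts and 2 blanks in Sham, was too sparse to test, as was miR-29c-3p. In both lists 5 of 15 tested members rose, or 33.3%, beside 33.3% of the 108 tested established miRNAs. Those 5 include miR-21-5p and miR-29a-3p. Without these, 1 of 4 (25.0%) rose among the miRNAs reported to promote fibrosis and 2 of 9 (22.2%) among those reported to restrain it.

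**Figure D5:**
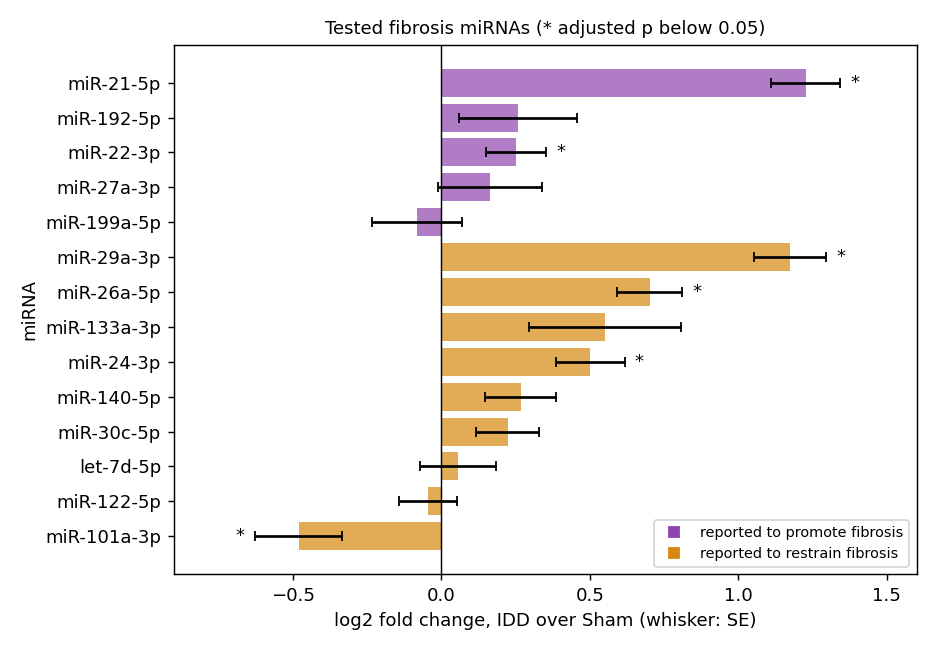
Log2 fold change of IDD over Sham (horizontal) with 1 SE for the 14 tested fibrosis miRNAs listed in both groups, those reported to promote fibrosis in purple and those reported to restrain it in orange, with asterisks for an adjusted p below 0.05. miR-21-5p and miR-29a-3p lead their lists at 1.23 and 1.17, and only miR-101a-3p is called lower.

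The miRNAs whose pattern over the 6 libraries was most like that of miR-21-5p were found by the root mean square distance between log2 profiles, each centred on its own mean. They were miR-340-5p at 0.12, miR-342-3p at 0.12, miR-29a-3p at 0.19, miR-30d-5p at 0.19 and miR-425-5p at 0.21, where the median distance over the tested established miRNAs was 0.60. Nearest to miR-29a-3p were miR-378a-5p at 0.15, miR-342-3p at 0.17, miR-21-5p at 0.19, miR-7a-5p at 0.21 and miR-103-3p at 0.24, against a median of 0.57. miR-342-3p, which is enriched in leukocytes, is in both sets and averaged 72.5 ± 10.2 CPM in IDD and 28.6 ± 0.717 CPM in Sham (SD, n = 3 each). miR-7a-5p averaged 202 ± 6.92 CPM in IDD and 69.6 ± 6.78 CPM in Sham. Among the 7 names other than the members, miR-30d-5p (log2 fold change 0.86) and miR-103-3p (0.79) had levels between those of the members, miR-30d-5p at 2489 CPM in IDD and 1376 CPM in Sham and miR-103-3p at 2788 CPM in IDD and 1610 CPM in Sham. All 7 were higher in IDD, which follows from picking them by likeness to profiles that are high in IDD. The call of miR-378a-5p (0.93, SE 0.22, edgeR adjusted p = 0.0449) is the weakest, with an adjusted p from 0.00825 to 0.267 over its alternatives.

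The cartilage markers miR-140 and miR-455, made by cells that lay down aggrecan, were listed in the nucleus pulposus libraries, and so were markers of other tissues. For skeletal muscle 5 of 6 listed markers had counts, with a summed level of 349790 to 413184 CPM in IDD and 217810 to 241227 CPM in Sham, nearly all miR-1b, and miR-133b-3p was not analysed here. For leukocytes 2 of 6 markers had counts, at 81.8 to 101 CPM in IDD and 37.8 to 45.1 CPM in Sham, and miR-142, miR-223-3p and miR-155-5p were not analysed here. For fibroblasts and mesenchyme 3 of 4 markers summed to 3772 to 4105 CPM in IDD and 2757 to 3528 CPM in Sham, and for cartilage all 4 summed to 115782 to 120978 CPM in IDD and 90837 to 103211 CPM in Sham. The mesenchymal sum was mostly miR-199a-3p (mean 3378 CPM in IDD, 2682 CPM in Sham). The cartilage sum was mostly miR-140-3p (mean 111169 CPM in IDD, 90943 CPM in Sham). Among tested markers, edgeR called 3 of 5 higher for skeletal muscle, 2 of 4 for cartilage and 1 of 2 for mesenchyme. For leukocytes 1 of 1, miR-342-3p, was called higher, and in these sets 0 were called lower. For red blood cells 1 of 1, miR-486, and for epithelium 1 of 1, miR-200a-3p, were called lower. The 1 tested marker each of smooth muscle and liver was not called. Of the 108 tested established miRNAs 33.3% were called higher and 24.1% lower. The red blood cell markers (2 of 3) summed to 695 to 759 CPM in IDD and 921 to 949 CPM in Sham, and the endothelial markers (2 of 2) to 23.2 to 29.2 CPM in IDD and 33.6 to 47.0 CPM in Sham. The smooth muscle markers (2 of 2) summed to 75.0 to 97.1 CPM in IDD and 107 to 139 CPM in Sham. Of the epithelial markers 1 of 6 had counts, blank in IDD and 127 to 361 CPM in Sham. The liver marker miR-122-5p overlapped, at 7659 to 7873 CPM in IDD and 7753 to 8242 CPM in Sham. The part of these markers in the rises of miR-21-5p and miR-29a-3p was not tested.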

How the data were processed

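Small RNA libraries of about 22 nt inserts, 50 cycles on an Illumina NovaSeq, were made from total RNA, per the labels' protocols. Per the submitters' processing notes, Novoalign 3.02.12, cutadapt 1.9.3 and build Rnor_6.0 are named, with no role given. Per the file headers, the authors deposited raw tag counts of mature sequences; blanks were set to 0 here. The authors' second table holds normalized tag counts rounded to whole numbers, treated as a score, with a normalization that no label or header describes.

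Here 491 rows were reduced to 442 distinct sequences (204 with an established name, 238 provisional). Counts were filtered (filterByExpr, minimum count 10, leaving 131), TMM-scaled and tested with edgeR 4.0.16 (R 4.3.3), robust quasi-likelihood, two-sided, at an adjusted p below 0.05. Each SE is the absolute log2 fold change divided by the root of its F statistic. limma 3.58.1 and DESeq2 1.42.0 served as alternatives, and the fit was tested on simulated data. The simulated rises and falls were balanced and shared a common spread, so that test does not bear on the choice of scaling. A floor of 3 counts was worth 11.8 to 17.7 CPM of unscaled totals. No label states pairs, so the main fit and the permutation tests were unpaired, and the replicate number served as a block in an alternative fit only. Same-numbered libraries deviated together weakly (correlations 0.111, 0.112 and 0.204). Pairs of different number ran from -0.214 (IDD 3 with Sham 1) to 0.109 (IDD 2 with Sham 1). The same-numbered pairs were thus the highest, by a small margin at the lower end. Whether the numbers mark pairs was not tested. Named miRNAs are the members, 2 level neighbours on each side, 5 profile neighbours and the tested members of the lists, beside reference and marker miRNAs. Members and lists were chosen with earlier results of these data known.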

Additional observations from a re-analysis of the deposited data

How the results depend on the processing

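Over 24 alternatives each (scalings, the authors' values, filters, tools, a replicate block and each library left out), miR-21-5p and miR-29a-3p kept their direction and stayed past the threshold, with adjusted p of at most 0.000944. Their log2 fold changes ran from 0.80 to 1.45 and from 0.76 to 1.41, and from 1.14 to 1.34 and from 1.04 to 1.25 with 1 library left out. The log2 ratio of mean shares with 1 library left out ran from 1.31 to 1.56 for miR-21-5p and from 1.25 to 1.47 for miR-29a-3p. The number of sequences called was 78, and 285 with no filter on low counts (442 sequences tested) and 49 with a mean count of at least 50 (75 tested). With 1 library left out it ran from 58 to 77, and without Sham 2 the calls were 24 higher and 34 lower. DESeq2 called 68. On the authors' normalized values plus 8 the calls were 59 higher and 30 lower. The difference in log2 ratio of miR-21-5p to miR-29a-3p ran from -0.12 to 0.17 with 1 library left out.

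With the replicate number as a block, the log2 fold change was 1.23 for miR-21-5p and 1.18 for miR-29a-3p, 80 sequences were called and the difference in log2 ratio was 0.04. Beside miR-140-5p, the block changed no call of a member, a neighbour or a tested fibrosis miRNA.

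Fibrosis miRNAs with small changes turned sign with the scaling. By the tags of established miRNAs the log2 fold changes were -0.36 for let-7d-5p, -0.16 for miR-140-5p and miR-192-5p, -0.17 for miR-22-3p, -0.25 for miR-27a-3p and -0.20 for miR-30c-5p. By the tags that do not end in CCA they were -0.33, -0.13, -0.13, -0.14, -0.22 and -0.17 for let-7d-5p, miR-140-5p, miR-192-5p, miR-22-3p, miR-27a-3p and miR-30c-5p. By the reference miRNAs let-7d-5p was at -0.12 and miR-27a-3p at -0.015, and let-7d-5p was at -0.073 with TMM on established miRNAs and -0.10 by established tags without miR-1b. miR-122-5p and miR-199a-5p were at 0.13 and 0.12 by all tags, 0.19 and 0.18 on the authors' values plus 1 and 0.19 and 0.16 plus 8, and miR-122-5p was at 0.020 with no filter. With 1 library left out, miR-199a-5p ran from -0.31 to 0.013 and let-7d-5p from -0.092 to 0.18. The call of miR-22-3p was lost in 12 of 24 settings with its sign kept, and in 2 others its sign turned and it was not called. The call of miR-200a-3p was lost in 10 of 23, of miR-378a-5p in 12 of 21, of miR-101a-3p in 5, of miR-425-5p in 4 and of miR-24-3p in 3. Calls with the sign of the main fit were gained for miR-140-5p and miR-378a-3p in 8 of 24 settings each. They were gained for miR-133a-3p in 4 of 23, for miR-30c-5p in 4 and for miR-27a-3p in 1. For miR-199a-5p, miR-122-5p, let-7d-5p, let-7c-5p, miR-148a-3p and miR-320-3p they were gained in 2 each. Calls with the sign turned are not counted here. For example, let-7a-5p was called only with its sign turned, to a lower level (lowest edgeR adjusted p = 0.00656). The bound of miR-200a-3p without each library in turn, chosen after seeing the data, ran from 10.1 to 19.0-fold. The level neighbours with small changes turned too. By the tags of established miRNAs the values were -0.37 for let-7c-5p, -0.39 for let-7a-5p, -0.26 for miR-148a-3p, -0.35 for miR-320-3p and -0.17 for miR-378a-3p, and by the tags that do not end in CCA -0.34, -0.36, -0.23, -0.32 and -0.14 in the same order. Without miR-1b among established tags they were -0.11, -0.13, -0.0055 and -0.094 for let-7c-5p, let-7a-5p, miR-148a-3p and miR-320-3p, and by the reference miRNAs -0.13, -0.15, -0.011 and -0.11. With TMM on established miRNAs let-7c-5p, let-7a-5p and miR-320-3p were at -0.084, -0.10 and -0.065, and let-7a-5p was at -0.012 with RLE factors and with DESeq2. With 1 library left out let-7c-5p ran from -0.091 to 0.13, let-7a-5p from -0.13 to 0.13, miR-148a-3p from -0.011 to 0.29 and miR-320-3p from -0.032 to 0.12. The cause of these losses, gains and turns was not tested.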
